A study of Mus musculus with 24 samples.

Results

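The 9 genes described here carry the calcium cycle and part of the electrical activity of cardiac muscle cells, or encode the natriuretic peptides that these cells secrete: Ryr2, Atp2a2, Pln, Casq2, Slc8a1, Cacna1c, Kcnh2, Nppa and Nppb. Their DNA methylation was read in liver, brain and heart of C57Bl/6J mice aged 24 weeks, as enhanced reduced representation bisulphite sequencing (RRBS), which sequences CpG-rich fragments of the genome after bisulphite conversion. There were 24 libraries, 12 of liver, 6 of brain and 6 of heart. Each tissue holds males and females in equal number, no mouse was treated, and the tissues are compared as groups with both genders together. Brain and heart came from mice that also gave liver, but the columns of levels carry no mouse number, so neither gender nor mouse could enter a comparison. The values are methylation fractions, from 0 (no read methylated) to 1 (every read methylated), of tiles of 100 bp on the mm10 build. A gene was given every tile from 10 kb upstream of its most upstream curated RefSeq start to its end. That gave 796 tiles in at least 1 tissue and 627 in all 3 tissues, of 1005908 and 758685 tiles in the whole series, and no tile belonged to 2 of the genes.

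In each beat, L-type channels built on Cacna1c let a little calcium into the cell, and this opens the ryanodine receptor Ryr2 on the sarcoplasmic reticulum, where calcium is stored bound to calsequestrin 2 (Casq2). The pump SERCA2 (Atp2a2), held back by phospholamban (Pln), returns calcium to the store, and the exchanger Slc8a1 moves it out of the cell in return for sodium. Kcnh2 encodes a potassium channel that can help to end the action potential, and Nppa and Nppb encode the atrial and B-type natriuretic peptides. Several of these genes are also used in neurons, and SERCA2 is found in most cells. In vertebrates, CpG-rich promoters tend to be unmethylated in every tissue, while enhancers and CpG-poor promoters often lose methylation in the tissue that uses them.

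Every library was most similar to the others of its own tissue. Heart was lower than the other tissues over the genome as a whole: mean levels over the tiles shared by all tissues were 0.596 to 0.603 in the heart libraries, 0.637 to 0.664 in brain and 0.648 to 0.661 in liver. Brain column 1 stood apart. Its highest correlation with a heart library was 0.923, the highest of any brain library with another tissue. Its lowest with another brain library was 0.942, the same as for brain column 6. Among the 75 tiles of the 9 genes that were higher in brain than in heart, its mean level was 0.674, against 0.761 to 0.772 in the other 5 brain libraries, and it was the lowest brain library in 44. Whether it was lowest as often at such tiles of other genes was not tested. Of 13 marker genes with a measured promoter, 10 had their lowest promoter level in the tissue they mark. Among them were Hnf4a in liver (0.238, against 0.892 in brain and 0.736 in heart) and Myl3 in heart (0.576, against 0.894 in liver and 0.884 in brain). Nkx2-5, Slc1a2 and Grin1 did not, and differed little between tissues. Among the 10, Snap25, Syt1 and Gad1 also differed little, at 0.0145, 0.0133 and 0.0212 in brain against 0.0206, 0.0203 and 0.0229 in heart. A promoter was measured for 2 of 7 listed liver markers, 7 of 8 brain markers and 4 of 8 heart markers. Each sample was a piece of 1 region: the rostral end of the brain, the apex of the heart or the left lobe of the liver. Cell types were not separated, so a difference in their mix and a difference within a cell type cannot be told apart.

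The genes were lower in heart far more often than higher. A tile was called when its adjusted p in limma, fitted over all 758685 tiles, was 0.01 or less and the tissue means were 0.3 or more apart. Of the 627 tiles, 95 (15.2%) were higher in liver than in heart, against 5.49% of all tiles, and 8 (1.28%) were lower, against 2.35%. Brain was higher than heart in 75 (12%), against 4.79% of all tiles, and lower in 6 (0.957%), against 1.08%. Between liver and brain, 39 tiles (6.22%) were higher in liver, against 3.50%, and 23 (3.67%) lower, against 3.68%. The library ranges of the tissues did not overlap in 92 of the 95 tiles higher in liver than in heart, and in 73 of the 75 higher in brain than in heart. Non-overlap was as usual among all called tiles of the series, at 96.1% and 93.5%. Without brain column 1, 84 tiles were higher in brain than in heart and 7 lower. The counts over all 758685 tiles rose as well, from 36376 to 41700 higher and from 8168 to 9037 lower. The comparisons with heart share the heart libraries. Over all 627 tiles, called or not, the median difference of liver minus heart was 0.081, and that of brain minus heart 0.0805. Over all tiles of the series these medians were 0.035 and 0.030.

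**Figure D1:**
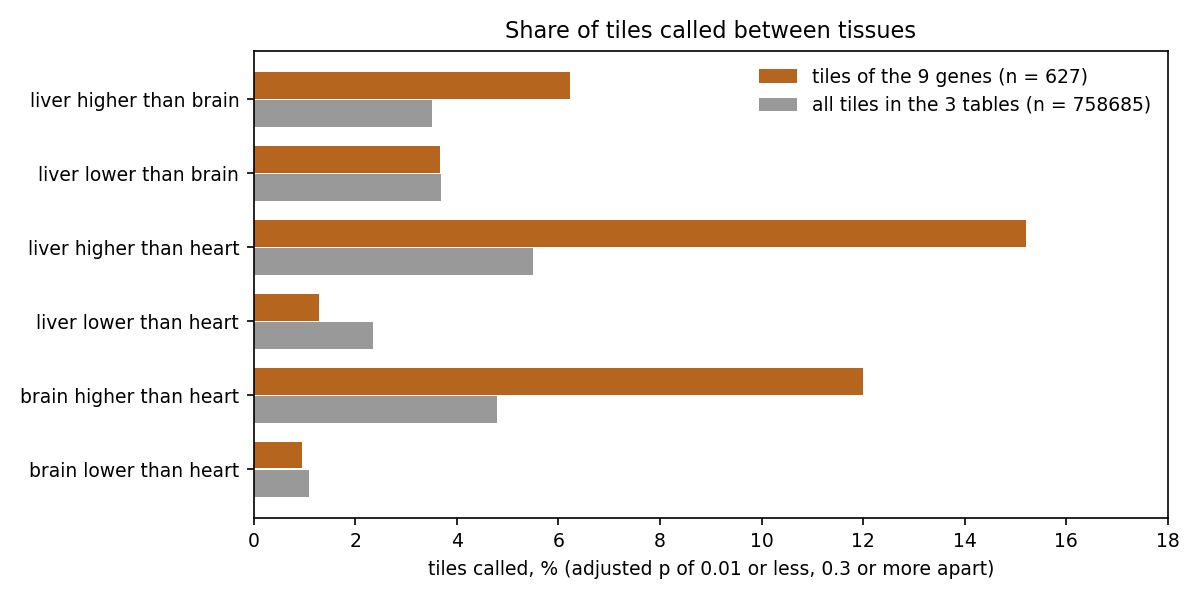
Share of tiles called in each comparison and direction, in percent, for the 627 tiles of the 9 genes and for all 758685 tiles. The bars of the 9 genes exceed the grey bars of all tiles in the liver higher than heart (15.2% against 5.49%) and brain higher than heart (12% against 4.79%) rows, and lie below them where heart is higher.

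Taking every tile whose highest and lowest tissue means lay 0.3 or more apart, with no test, gave 166 of 627, or 26.5%, against 13.7% of all tiles. Heart was the lowest tissue in 116 of the 166, brain in 27 and liver in 23. Heart was the highest tissue in 4. Across all tiles of the series that were this far apart, heart was lowest in 53376 of 103750. Just inside the limit lay Cacna1c tiles with ranges of 0.30, and just outside it a Slc8a1 tile at 0.299 and an Nppa tile at 0.296. The share was 27.2% among the 559 gene body tiles, 21.3% among 47 promoter tiles (from 1000 bp upstream to 500 bp downstream of a start) and 19% among 21 tiles farther upstream. Tiles with 1 CpG were far apart in 35.4% of cases, those with 2 to 4 CpGs in 25.9% and those with 5 or more in 13.2%. These splits by region and by CpG number were not made over all tiles. Whether they are particular to these genes therefore cannot be said. The read depth of a tile is unknown, and a tile with 1 CpG rests on that CpG alone.

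By gene, the far-apart tiles numbered 81 of 305 in Cacna1c, 36 of 121 in Ryr2, 17 of 76 in Slc8a1, 14 of 43 in Casq2, 10 of 28 in Atp2a2, 2 of 45 in Kcnh2, 3 of 4 in Nppa and 3 of 5 in Nppb. Pln had no tile in all 3 tissues. Ryr2 was the most uniform of the larger genes, with heart lowest in 35 of its 36. Heart was also lowest in 13 of 17 in Slc8a1, 53 of 81 in Cacna1c, and all of those in Kcnh2 and Nppb. Casq2 and Atp2a2 were mixed, with heart lowest in 6 of 14 and 4 of 10, and in Nppa brain was lowest in all 3.

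The same levels averaged over a promoter or a gene body, 1 value per gene and library, were compared with limma over all genes. Here a call needed an adjusted p of 0.01 or less and means at least 0.1 apart. Among all genes, and in either direction, promoters were called in 10.2% (liver against brain), 11.2% (liver against heart) and 10.1% (brain against heart). For bodies these shares were 17.3%, 25.4% and 20.0%. Of the 9 genes, 7 had promoter values and 8 body values. Liver was higher than heart in 2 promoters (Casq2, Slc8a1) and 4 bodies (Ryr2, Cacna1c, Nppa, Nppb), and lower in none. Among all genes it was higher in 8.38% of promoters and 20.9% of bodies, and lower in 2.86% and 4.48%. Brain was higher than heart in 3 promoters (Casq2, Slc8a1, Nppb) and 2 bodies (Ryr2, Nppb), and lower in the body of Nppa. The shares among all genes were 8.35% and 17.8% higher, and 1.79% and 2.20% lower. Liver was higher than brain in the Slc8a1 promoter and the Nppa body, and lower in the Nppb promoter and body. Here the shares of all promoters and bodies were 5.04% and 9.03% higher, and 5.20% and 8.27% lower.

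**Figure D2:**
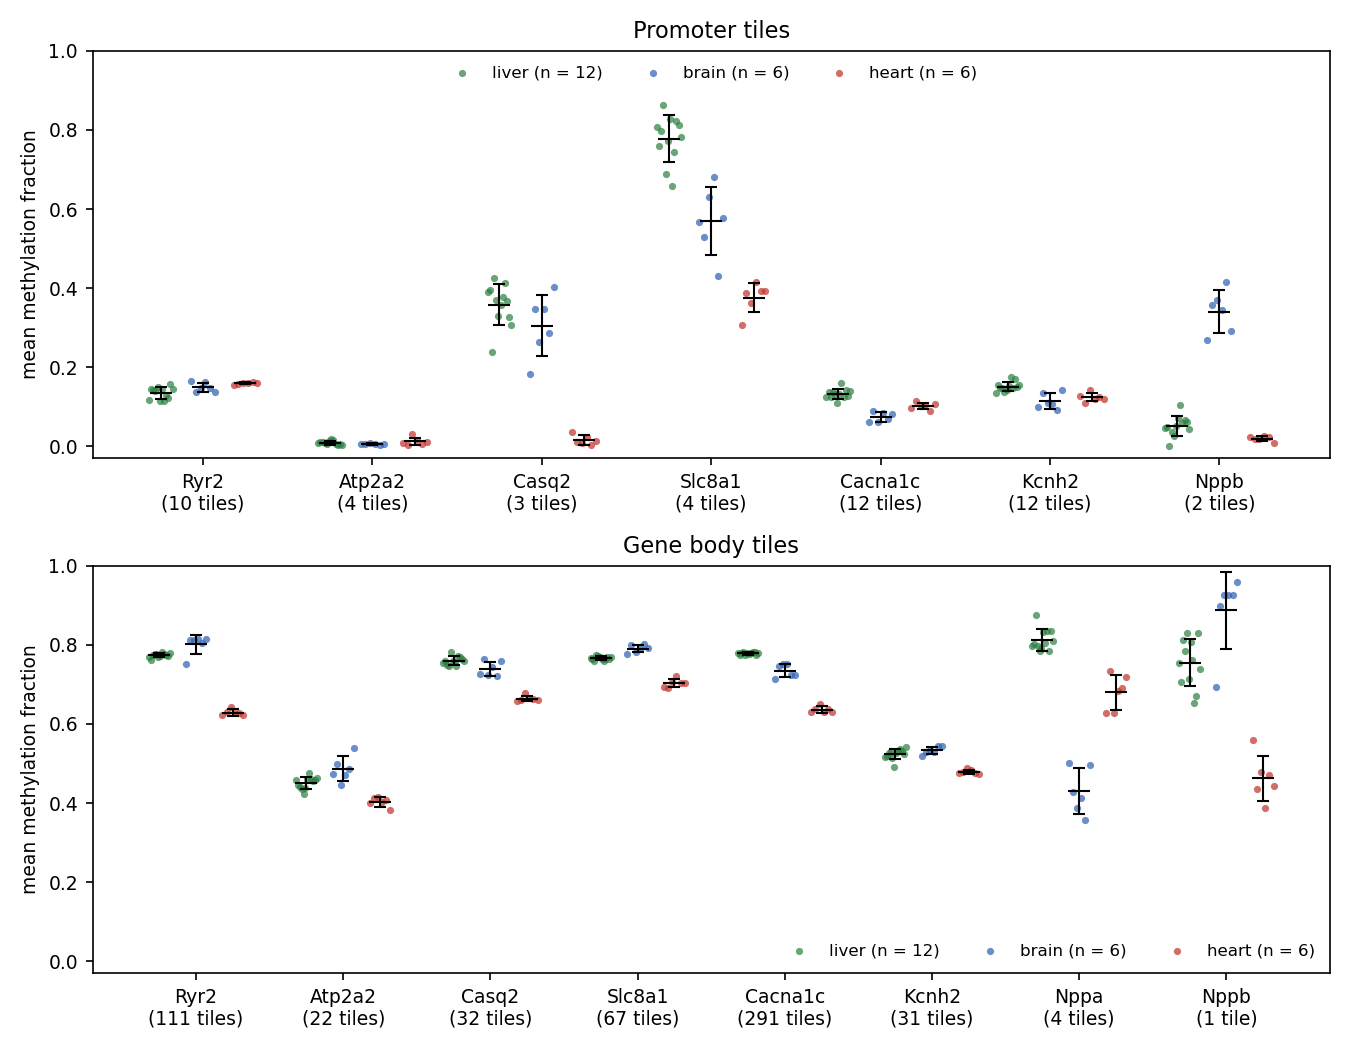
Mean methylation fraction of promoter tiles (upper panel) and gene body tiles (lower panel) of each gene with tiles in all 3 tissues. Each point is 1 library, and the black mark and bars are the mean and SD of a tissue. The heart libraries lie apart from both other tissues in the Casq2 promoter (0.004 to 0.0373) and the Ryr2 body (0.621 to 0.643).

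Ryr2 (chr13:11553103-12106945, minus strand) is the calcium release channel of the sarcoplasmic reticulum. Its promoter was low in all tissues. The tile at the start was methylated at 0.0214 ± 0.0146 in liver (SD, n = 12), 0.00817 ± 0.00538 in brain (n = 6) and 0.0103 ± 0.00432 in heart (n = 6). Over the 10 promoter tiles, liver averaged 0.135 ± 0.0148, brain 0.149 ± 0.0117 and heart 0.160 ± 0.00266, and none of the 3 comparisons was called. One promoter tile, 306 bp upstream of the start, lay in the opposite direction to the gene body, with means of 0.154 in liver, 0.178 in brain and 0.333 in heart, a difference below the size needed for a call.

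The body of Ryr2 was lower in heart. Over 111 tiles, the 6 heart libraries ranged from 0.621 to 0.643 (median 0.627), the 12 liver libraries from 0.761 to 0.782 (median 0.775) and the 6 brain libraries from 0.751 to 0.815 (median 0.811). No heart library reached the level of any library of the other tissues. The difference was 0.145 ± 0.00686 (SE) for liver minus heart (adjusted p = 2.95e-15) and 0.172 ± 0.00793 for brain minus heart (adjusted p = 1.48e-14). Brain column 1 gave the lowest brain value, and without it brain minus heart was 0.182 ± 0.00474.

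The far-apart tiles of Ryr2 were crowded towards its start. In the first 100 kb of the gene body, 29 of 51 tiles (56.9%) were 0.3 or more apart, and beyond 100 kb 7 of 60 (11.7%). The median heart level was 0.512 in the first stretch and 0.796 beyond it, while the medians of liver were 0.777 and 0.873 and those of brain 0.839 and 0.908. The limit of 100 kb was chosen after the levels had been seen, so the split is a description. Among the far-apart tiles, the lowest heart levels were those of a pair of tiles in the first of the introns, 5.494 and 5.694 kb downstream of the start (chr13:12101201-12101500). In their mean, the heart libraries ranged from 0.0635 to 0.166 (median 0.104), liver from 0.333 to 0.650 (median 0.475) and brain from 0.420 to 0.631 (median 0.586). No heart library overlapped with another tissue in either tile. The tile with the lowest heart level is printed here, on the plus strand of mm10, with its CpGs in capitals.
Ryr2 chr13:12101401-12101500: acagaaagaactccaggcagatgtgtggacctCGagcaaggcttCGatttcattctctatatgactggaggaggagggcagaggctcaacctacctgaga

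Within 2 kb of that pair lay the widest single tile of the gene, and the only one of the 36 where liver was lowest. At chr13:12099501-12099600, also in the first intron and with 1 CpG, liver ranged from 0.160 to 0.373 (median 0.237), heart from 0.390 to 0.50 (median 0.430) and brain from 0.641 to 0.846 (median 0.836). The 3 tissues did not overlap. Liver minus brain was -0.564 ± 0.0310 (adjusted p = 4.13e-14) and brain minus heart 0.355 ± 0.0358 (adjusted p = 1.27e-08). Its neighbours within the same run of 4 tiles (chr13:12099401-12100000) were lowest in heart.

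Farther in, a pair of tiles in the 12th intron, about 268 kb from the start (chr13:11838401-11838700), had a mean of 0.194 to 0.361 in the heart libraries (median 0.301), 0.704 to 0.924 in liver (median 0.809) and 0.427 to 0.754 in brain (median 0.646). At the better separated tile, starting at 11838601, liver minus heart was 0.560 ± 0.0477 (adjusted p = 2.50e-10) and brain minus heart 0.476 ± 0.0550 (adjusted p = 1.21e-07). Near the 3′ end, a pair of tiles in coding sequence (chr13:11595401-11595600) was at 0.597 in heart, 0.923 in liver and 0.918 in brain. The other runs of Ryr2, all intronic and between 17 and 90 kb from the start, had heart means of 0.272 to 0.625.

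**Figure D3:**
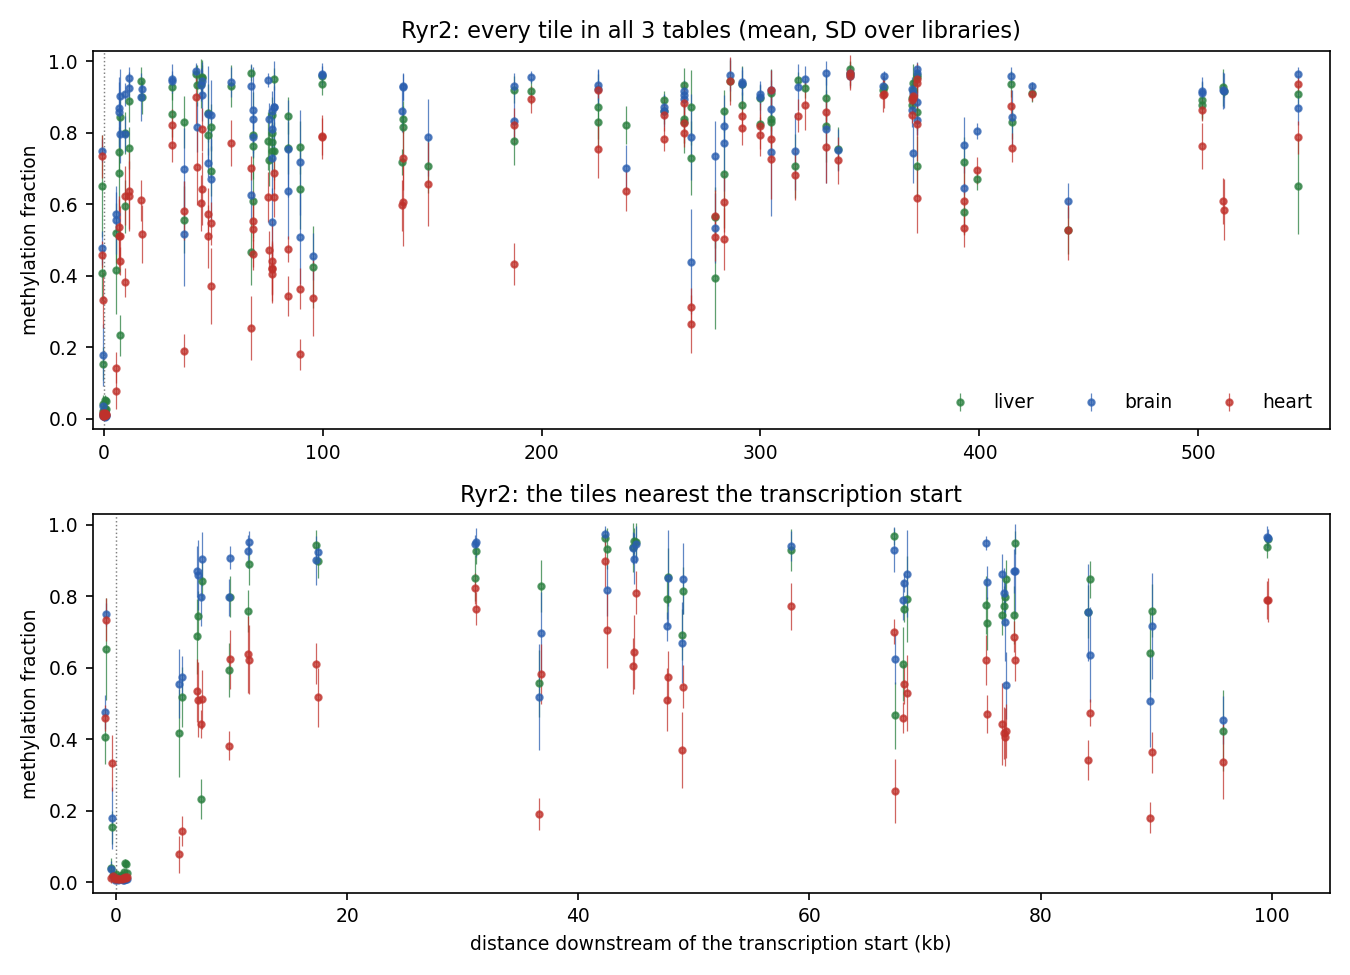
Methylation fraction of every Ryr2 tile present in all 3 tissues, against the distance downstream of the transcription start in kb. Points are tissue means and bars 1 SD over libraries, with the lower panel enlarging the start. Levels are near 0 in all tissues at the start, and over the first 100 kb most heart points (median 0.512) lie below those of liver and brain.

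Casq2 (chr3:102086415-102146514, plus strand) encodes calsequestrin 2, the calcium-binding protein of the store. Its 3 promoter tiles lie 365 to 565 bp upstream of the start and hold 3 CpGs each. At the tile nearest the start (chr3:102086001-102086100), heart ranged from 0.005 to 0.034 (median 0.018), liver from 0.175 to 0.519 (median 0.385) and brain from 0.197 to 0.506 (median 0.437). This tile was all but unmethylated in every heart library and partly methylated in every library of liver and brain. The mean over the 3 tiles was 0.0167 ± 0.0122 in heart, 0.358 ± 0.0513 in liver and 0.306 ± 0.0773 in brain. Liver minus heart was 0.342 ± 0.0250 (adjusted p = 1.76e-11) and brain minus heart 0.289 ± 0.0289 (adjusted p = 1.28e-08). Liver and brain did not differ past the threshold (0.0528 ± 0.0250, adjusted p = 0.0949). The farthest of the 3 tiles is shown here, on the plus strand with its CpGs in capitals.
Casq2 chr3:102085801-102085900: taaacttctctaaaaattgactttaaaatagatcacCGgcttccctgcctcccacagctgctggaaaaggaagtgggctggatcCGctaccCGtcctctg

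The body of Casq2 was mixed. Its 32 tiles averaged 0.664 ± 0.00716 in heart, 0.760 ± 0.0110 in liver and 0.739 ± 0.0189 in brain, and these differences were smaller than the 0.1 needed for a call. The widest tile, in coding exon 10 (chr3:102142101-102142200), was lowest in brain: brain ranged from 0.263 to 0.556 (median 0.346), heart from 0.659 to 0.754 (median 0.711) and liver from 0.746 to 0.873 (median 0.829). Brain was below both other tissues in every library, by 0.455 ± 0.0333 against liver (adjusted p = 1.24e-11), and brain minus heart was -0.350 ± 0.0385 (adjusted p = 5.22e-08). Liver was lowest in 5 far-apart tiles. In 3 of them, introns 37 to 46 kb from the start, liver was at 0.488, 0.486 and 0.441, with brain at 0.829, 0.884 and 0.816. There, heart lay between the other tissues, at 0.621, 0.571 and 0.740.

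Atp2a2 (chr5:122453513-122502225, minus strand) encodes the calcium pump SERCA2. Its promoter was unmethylated in all tissues, with means over 4 tiles of 0.00927 ± 0.00504 in liver, 0.00604 ± 0.00176 in brain and 0.0127 ± 0.00975 in heart. The body averaged 0.451 in liver, 0.486 in brain and 0.403 in heart, and no comparison of it was called. Inside the gene, single exons and introns differed, and in 6 of the 10 far-apart tiles liver or brain was lowest. In coding exon 18 (chr5:122458101-122458300), the pair of tiles averaged 0.029 to 0.127 in the liver libraries (median 0.0578), 0.127 to 0.271 in heart (median 0.19) and 0.346 to 0.636 in brain (median 0.477). In coding exon 14 (chr5:122460701-122460900) the order was turned round, with brain at 0.235 to 0.634 (median 0.349), heart at 0.520 to 0.635 (median 0.609) and liver at 0.80 to 0.919 (median 0.847). At the first tile of exon 14, liver minus brain was 0.515 ± 0.0359 (adjusted p = 4.65e-12), and at the second tile of exon 18 it was -0.497 ± 0.0298 (adjusted p = 2.40e-13).

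The widest Atp2a2 tile lies in intron 10 (chr5:122466101-122466200) and was low in liver. Liver ranged from 0.103 to 0.348 (median 0.184), heart from 0.419 to 0.80 (median 0.699) and brain from 0.556 to 0.913 (median 0.759). Liver did not overlap with the other tissues, and heart and brain did not differ past the threshold (0.0775 ± 0.0560, adjusted p = 0.288). Liver minus brain was -0.547 ± 0.0485 (adjusted p = 5.00e-10) and liver minus heart -0.470 ± 0.0485 (adjusted p = 8.31e-09). Its sequence is given on the plus strand with the CpGs in capitals.
Atp2a2 chr5:122466101-122466200: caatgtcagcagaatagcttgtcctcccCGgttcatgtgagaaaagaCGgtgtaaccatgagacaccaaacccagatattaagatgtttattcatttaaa

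Of the 4 Atp2a2 tiles where heart was lowest, 2 were in coding exons and 2 in introns. Their heart means were 0.498 to 0.671, their liver means 0.864 to 0.972 and their brain means 0.664 to 0.943.

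Pln (chr10:53337686-53345999, plus strand), which encodes the inhibitor of SERCA2, was hardly covered. It had 2 tiles, both in its second intron and within Cep85l, an overlapping gene, and neither was measured in heart. At chr10:53342201-53342300, liver was at 0.913 ± 0.0744 (n = 12) and brain at 0.843 ± 0.106 (n = 6), with overlapping libraries. The neighbouring tile was measured in liver alone, at 0.843 ± 0.0752. Its promoter in RefSeq, from 250 bases before to 50 bases after the start, holds 1 CpG, against a median of 7 over all promoters of the same length.

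Slc8a1 (chr17:81373105-81738387, minus strand) encodes the sodium-calcium exchanger of the cell membrane. Unlike Ryr2, Atp2a2 and Kcnh2, it had methylated tiles right at its start. The mean of its 4 promoter tiles, 36 bp downstream to 264 bp upstream, ranged from 0.658 to 0.864 in liver (median 0.789), from 0.431 to 0.682 in brain (median 0.573) and from 0.308 to 0.415 in heart (median 0.390). Liver was highest, brain intermediate and heart lowest, no heart library reached the lowest brain library, and liver and brain overlapped. Each step was called: liver minus heart 0.402 ± 0.0298 (adjusted p = 2.11e-11), liver minus brain 0.208 ± 0.0298 (adjusted p = 1.89e-06) and brain minus heart 0.194 ± 0.0344 (adjusted p = 7.26e-05).

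A second run, 2.364 to 2.564 kb upstream of the start (chr17:81740701-81741000), showed the same order more widely spaced. Over its 3 tiles, heart ranged from 0.133 to 0.206 (median 0.180), brain from 0.418 to 0.614 (median 0.520) and liver from 0.703 to 0.845 (median 0.765). The tissues did not overlap in this mean. Its outermost tile was the widest of the gene, with liver minus heart at 0.639 ± 0.0386 (adjusted p = 3.81e-13) and brain minus heart at 0.420 ± 0.0446 (adjusted p = 3.11e-08). That tile is given on the plus strand of mm10, and below it stands the RefSeq sequence of the 250 bases before the start, chr17:81738388-81738637, read 5′ to 3′ on the minus strand. The latter overlaps all 4 promoter tiles, and CpGs are in capitals, including a first G whose C lies in the preceding tile.
Slc8a1 chr17:81740901-81741000: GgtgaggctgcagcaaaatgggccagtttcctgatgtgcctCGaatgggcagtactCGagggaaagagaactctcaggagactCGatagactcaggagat
Slc8a1 upstream of the start: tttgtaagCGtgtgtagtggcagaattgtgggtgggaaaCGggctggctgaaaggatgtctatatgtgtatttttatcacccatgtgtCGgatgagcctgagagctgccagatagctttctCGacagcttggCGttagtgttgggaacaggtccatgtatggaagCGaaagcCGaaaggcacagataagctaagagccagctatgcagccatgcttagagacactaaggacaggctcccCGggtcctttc

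The body of Slc8a1, over 67 tiles, averaged 0.703 ± 0.0106 in heart, 0.766 ± 0.00447 in liver and 0.790 ± 0.00970 in brain, each difference under the 0.1 needed. Single body tiles went several ways. One intron tile, about 196 kb from the start, had means of 0.342 in brain, 0.693 in heart and 0.894 in liver. In 3 others, between 110 and 206 kb from the start, liver was lowest at 0.370 to 0.562 and brain highest at 0.711 to 0.876.

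**Figure D4:**
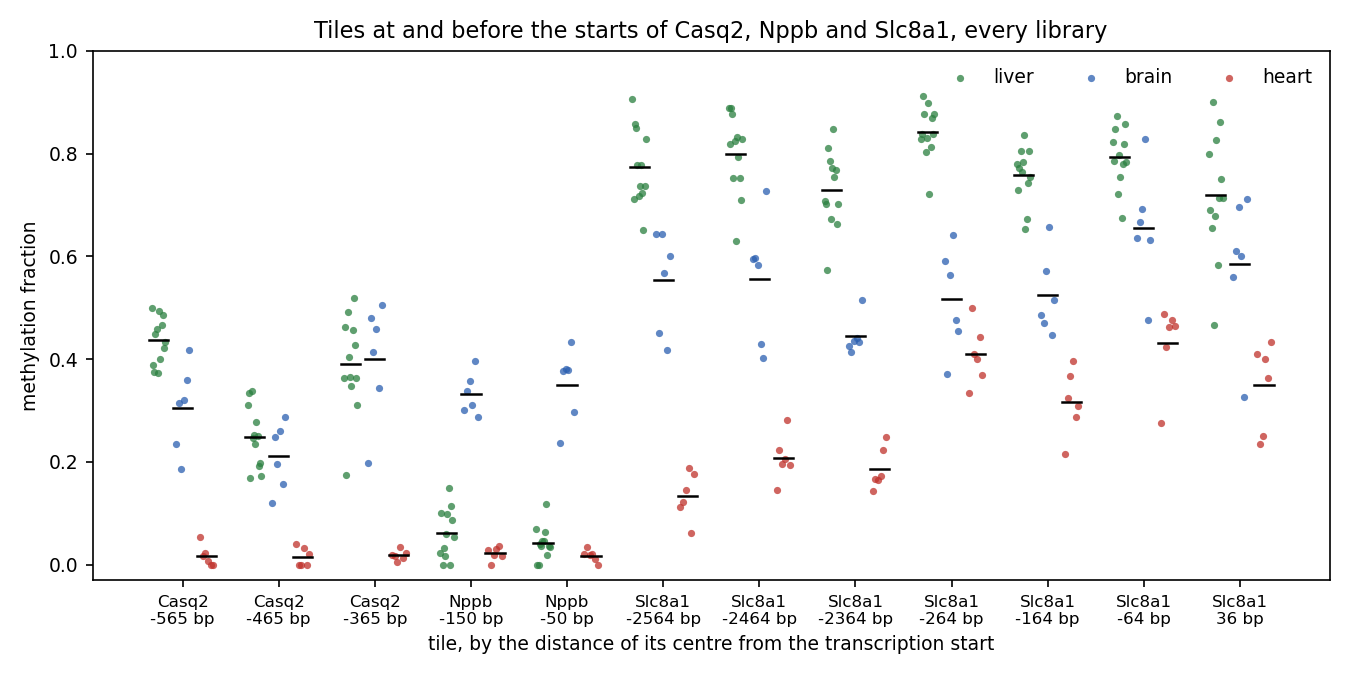
Methylation fraction of each library in the promoter tiles of Casq2, Nppb and Slc8a1 and in the Slc8a1 run farther upstream, with the distance of each tile's centre from the start in bp. Points are libraries and black lines tissue means. Heart lies near 0 in Casq2, where liver and brain are partly methylated, brain alone is raised in Nppb, and in Slc8a1 the levels descend from liver to brain to heart.

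Cacna1c (chr6:118587240-119196409, minus strand) encodes the pore of the cardiac L-type calcium channel and, with 305 tiles and 3 annotated starts, is the largest and best covered of the genes. The start nearest to a tile lies inside the first intron of the longest transcripts, in CpG-rich sequence, and was unmethylated, at 0.00692 in liver, 0.00317 in brain and 0.00700 in heart. The 12 promoter tiles averaged 0.133 in liver, 0.0752 in brain and 0.102 in heart, differences below the size needed. The 2 tiles of the promoter that were far apart lie before the most upstream start, also within the overlapping gene Dcp1b. The tile 742 bp before that start had liver at 0.503 to 0.709 (median 0.629), brain at 0.165 to 0.448 (median 0.322) and heart at 0.173 to 0.287 (median 0.189). There liver lay above both other tissues in every library, while brain and heart overlapped. The tile 942 bp before the start was lowest in brain, at 0.357 to 0.611 (median 0.532), with heart at 0.632 to 0.778 (median 0.689) and liver at 0.70 to 0.935 (median 0.827). It was the only far-apart promoter tile of the 9 genes in which heart was not lowest.

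The body of Cacna1c was lowest in heart and highest in liver. Over 291 tiles, heart ranged from 0.629 to 0.651 (median 0.634), brain from 0.714 to 0.752 (median 0.735) and liver from 0.774 to 0.781 (median 0.779), with no overlap between the tissues. Liver minus heart was 0.142 ± 0.00517 (adjusted p = 2.65e-17). Brain minus heart was 0.0989 ± 0.00597, just short of the 0.1 needed, and it was 0.103 ± 0.00558 and called when brain column 1 was left out. Among its 305 tiles, 51 were higher in liver than in heart and 6 lower, against 5.49% and 2.35% of all tiles. In 28, brain was higher than heart and in 2 lower, against 4.79% and 1.08%. Liver was higher than brain in 29 and lower in 9, against 3.50% and 3.68%.

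The widest tile of all 627 belonged to a run in the first intron of Cacna1c, about 19 kb from the most upstream start (chr6:119177001-119177800). Over its 6 tiles, the heart libraries ranged from 0.124 to 0.181 (median 0.142), brain from 0.414 to 0.497 (median 0.462) and liver from 0.679 to 0.792 (median 0.757). The tissues were fully separated in this mean. That tile had heart at 0 to 0.269 (median 0.102), brain at 0.424 to 0.655 (median 0.60) and liver at 0.740 to 0.905 (median 0.863). Liver minus heart was 0.710 ± 0.0383 (adjusted p = 4.48e-14) and brain minus heart 0.441 ± 0.0443 (adjusted p = 1.23e-08). The run also lies inside Dcp1b, a gene of mRNA decapping on the plus strand, 1797 to 2497 bp downstream of that gene's start and in none of its exons. To which of the 2 genes the difference belongs cannot be told apart. The widest tile reads as follows on the plus strand.
Cacna1c chr6:119177601-119177700: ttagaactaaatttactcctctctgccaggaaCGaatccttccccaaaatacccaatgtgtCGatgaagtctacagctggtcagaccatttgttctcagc

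A further run closer to the start, 2.358 to 2.558 kb downstream of it (chr6:119193801-119194100) and also within Dcp1b, was low in heart alone. Heart ranged from 0.380 to 0.410 (median 0.40), liver from 0.809 to 0.925 (median 0.870) and brain from 0.799 to 0.926 (median 0.905). At its middle tile, brain minus heart was 0.558 ± 0.0270 (adjusted p = 5.29e-14) and liver minus heart 0.516 ± 0.0234 (adjusted p = 1.78e-15), while liver and brain did not differ past the threshold (adjusted p = 0.163).

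Other stretches of Cacna1c differed in liver or in brain. In the first intron, about 80 kb from the most upstream start (chr6:119116601-119116800), liver was low, with a mean over 2 tiles of 0.239 to 0.382 (median 0.285), against 0.912 to 0.989 in brain (median 0.955) and 0.932 to 0.969 in heart (median 0.95). Brain and heart were almost fully methylated there, and at the second tile liver minus brain was -0.675 ± 0.0255 (adjusted p = 4.26e-17). In coding exon 2 (chr6:119057201-119057400), with 13 CpGs in 2 tiles, brain ranged from 0.197 to 0.537 (median 0.338), heart from 0.415 to 0.636 (median 0.527) and liver from 0.885 to 0.970 (median 0.933). Liver lay above the other tissues in every library, and brain and heart overlapped. At the second of these tiles liver minus brain was 0.634 ± 0.0401 (adjusted p = 6.62e-13).

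At the other end of the gene, 21 CpGs in 3 tiles across the last coding exon and the beginning of the 3′ UTR (chr6:118593701-118594000) were lowest in liver. Liver ranged from 0.0343 to 0.117 (median 0.0535), heart from 0.133 to 0.323 (median 0.253) and brain from 0.312 to 0.483 (median 0.391). A run of 5 intron tiles about 368 kb from the start (chr6:118827501-118828100) was lowest in brain, at 0.391 to 0.533 (median 0.525), with heart at 0.643 to 0.724 (median 0.669) and liver at 0.844 to 0.905 (median 0.865). In all, heart was lowest in 53 far-apart tiles of Cacna1c, brain in 18 and liver in 10.

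**Figure D5:**
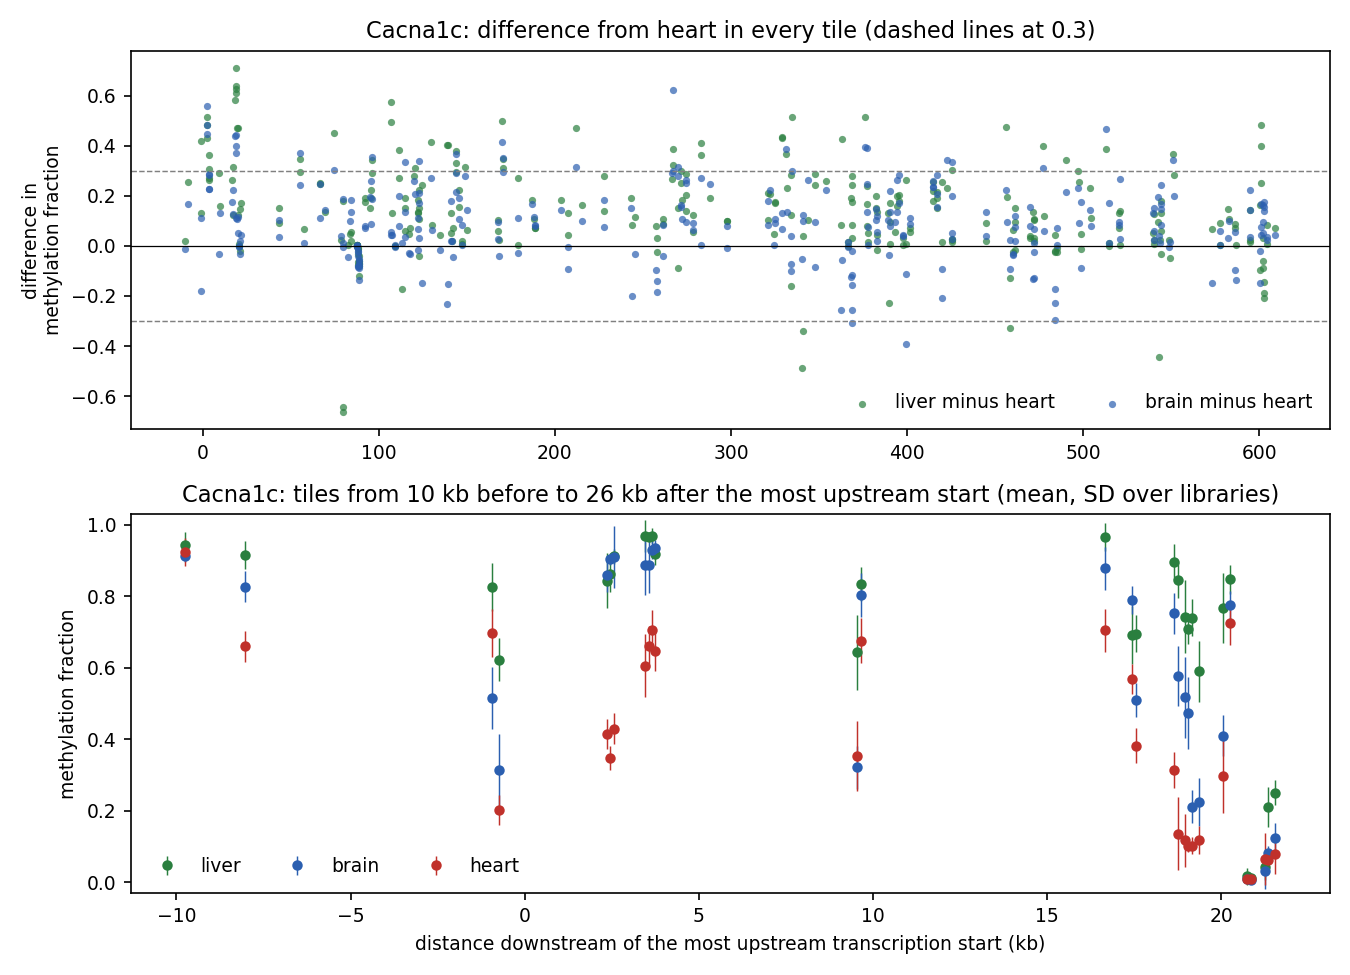
Cacna1c tiles against the distance downstream of its most upstream start in kb. The upper panel gives the difference of liver minus heart and of brain minus heart in every tile, with dashed lines at 0.3, and the lower panel the tissue means with SD over libraries around the start. In the run about 19 kb from the start heart lies at 0.101 to 0.315, below brain and liver in each tile.

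Kcnh2 (chr5:24319589-24351604, minus strand), the gene of the potassium channel called hERG in humans, had the smallest share of far-apart tiles, 4.44%. Its 12 promoter tiles averaged 0.151 in liver, 0.115 in brain and 0.124 in heart, and its 31 body tiles 0.524, 0.533 and 0.479, with no call. The 2 far-apart tiles of 45 lie side by side in intron 2, about 5 kb from the first start (chr5:24346501-24346700). At the second, heart ranged from 0.479 to 0.638 (median 0.560), liver from 0.863 to 0.952 (median 0.898) and brain from 0.721 to 0.939 (median 0.907). Heart was below every library of the other tissues. Liver minus heart was 0.337 ± 0.0270 (adjusted p = 8.20e-11) and brain minus heart 0.308 ± 0.0312 (adjusted p = 1.45e-08), and the latter fell under the minimum of 0.3 in 4 of the 24 fits without 1 library. On the plus strand the tile reads as follows.
Kcnh2 chr5:24346601-24346700: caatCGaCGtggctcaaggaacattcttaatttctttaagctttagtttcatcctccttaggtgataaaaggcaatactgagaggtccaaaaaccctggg

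Nppa and Nppb are neighbours on chromosome 4 and are both short. They showed opposite patterns in brain. Nppb (chr4:147985900-147987205, plus strand), which encodes B-type natriuretic peptide, was nearly unmethylated at its promoter in heart and in liver and partly methylated in brain. At the tile that ends on the start (chr4:147985801-147985900), heart ranged from 0 to 0.035 (median 0.0195), liver from 0 to 0.118 (median 0.038) and brain from 0.236 to 0.433 (median 0.378). Brain did not overlap with either tissue. Over the 2 promoter tiles, brain minus heart was 0.321 ± 0.0175 (adjusted p = 3.72e-13) and liver minus brain -0.289 ± 0.0152 (adjusted p = 1.75e-14), while liver and heart did not differ past the threshold (0.0320 ± 0.0152, adjusted p = 0.0990). Heart and liver overlapped at both tiles.

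The body of Nppb had 1 tile in all tissues, in coding exon 2 (chr4:147986401-147986500). Heart ranged from 0.387 to 0.559 (median 0.457), liver from 0.652 to 0.830 (median 0.758) and brain from 0.693 to 0.958 (median 0.925). Heart was below every other library, with brain minus heart at 0.425 ± 0.0408 (adjusted p = 5.73e-09) and liver minus heart at 0.293 ± 0.0353, under the tile minimum of 0.3. The lowest brain value was that of brain column 1. The sequence of the 250 bases before the Nppb start, chr4:147985650-147985899, is printed from RefSeq on the plus strand, since it holds both promoter tiles but for 1 base.
Nppb upstream of the start: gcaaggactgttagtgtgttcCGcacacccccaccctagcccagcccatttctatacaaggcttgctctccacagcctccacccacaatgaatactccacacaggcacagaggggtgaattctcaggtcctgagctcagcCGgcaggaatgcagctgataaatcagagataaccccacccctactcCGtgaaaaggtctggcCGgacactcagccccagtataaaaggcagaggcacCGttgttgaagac

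Nppa (chr4:148000722-148002074, plus strand), which encodes atrial natriuretic peptide, had no promoter tile in all tissues. Its 4 tiles run from intron 2 into the last exon and averaged 0.356 to 0.502 in the brain libraries (median 0.420), 0.627 to 0.733 in heart (median 0.687) and 0.784 to 0.876 in liver (median 0.803). All 3 tissues were separate. Liver minus brain was 0.382 ± 0.0195 (adjusted p = 1.59e-14), brain minus heart -0.250 ± 0.0225 (adjusted p = 8.33e-10) and liver minus heart 0.132 ± 0.0195 (adjusted p = 1.30e-06). The widest tile, with 1 CpG (chr4:148001601-148001700), had brain at 0.205 to 0.375 (median 0.260), heart at 0.580 to 0.733 (median 0.625) and liver at 0.710 to 0.852 (median 0.813). It is shown on the plus strand. In the coding tile next to it, heart (0.824) and liver (0.814) did not differ past the threshold and brain was at 0.467.
Nppa chr4:148001601-148001700: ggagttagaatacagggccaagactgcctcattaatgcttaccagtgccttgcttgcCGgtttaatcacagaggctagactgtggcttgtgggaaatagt

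RefSeq promoter sequences (GRCm38.p6, 250 bases before to 50 after a start) were at hand for 8 of the 9 genes, 10 promoters in all. Searched on both strands, AGATAA, the core bound by GATA factors, was found in 3 of the 10 (Nppb, Pln and Slc8a1), against 11.2% of all 32851 promoters. A MEF2 motif was found in 1, that of Casq2, against 1.86% of all. The CArG box (1.63% of all) and CACGTG (7.15% of all) were found in none of the 10.

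Over all tiles of a gene, from 10 kb upstream to its end, heart had the lowest mean in each of the 7 genes with at least 5 shared tiles. Over all 20310 genes with at least 5 tiles, heart was lowest in 68.5%. In 6 of the 7, all but Nppb, every heart library lay below every library of the other tissues, as it did in 32.5% of all genes. In Cacna1c and Ryr2 the heart libraries ranged from 0.609 to 0.630 and from 0.583 to 0.603. The libraries of liver and brain overlapped in Ryr2 (0.710 to 0.727 and 0.703 to 0.761), Atp2a2, Casq2, Slc8a1 and Kcnh2. Liver lay above brain in every library of Cacna1c (0.749 to 0.757 against 0.689 to 0.726) and below it in every library of Nppb (0.459 to 0.554 against 0.568 to 0.661). By the distance between the 3 tissue means, taken over 20303 genes with at least 5 tiles, the genes closest in level were Catsper1 for Ryr2 (distance 0.0103), Galnt15 for Cacna1c (0.00758), Cyp4f18 for Slc8a1 (0.00406), Pla2g2c for Casq2 (0.00480) and Kcng1 for Nppb (0.0130).

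Partners and regulators of these proteins were read in the same way, from a list of 26 genes, of which 23 had promoter values and 23 body values, with 20 in both. Bodies were higher in liver than in heart in 9 of 23 and lower in none, against 20.9% and 4.48% of all bodies, and higher in brain than in heart in 7 and lower in none, against 17.8% and 2.20%. Promoters were higher in liver than in heart in 4 of 23 and in brain than in heart in 4, against 8.38% and 8.35%, with none lower. The median body difference of the list was 0.0804 for liver minus heart, against 0.0510 over all genes. Jph2, which joins the surface membrane to the store, had a promoter at 0.257 in heart, 0.520 in liver and 0.499 in brain. Hrc, a calcium-binding protein of the store, was at 0.635, 0.899 and 0.909, and Sln, a further inhibitor of SERCA pumps, at 0.712, 0.860 and 0.823. The body of Camk2d, a calcium-dependent kinase, was at 0.567 in heart, 0.785 in liver and 0.710 in brain, and that of the gap junction gene Gja1 at 0.302, 0.501 and 0.458. The promoter of Kcne1 had brain at 0.481, above liver (0.261) and heart (0.272).

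The 12 paralogs of the 9 genes include genes used in skeletal muscle or neurons. None of the 9 promoters with values differed between tissues past the thresholds, where 10.1% to 11.2% of all promoters were called in a comparison. Of the 12 bodies, 1 was higher in liver than in heart, against 20.9% of all bodies. This was Casq1, the skeletal muscle calsequestrin, at 0.160 in heart and 0.359 in liver. Casq1 was also the only body higher in liver than in brain (0.248), against 9.03% of all bodies. Brain was higher than heart in 2 bodies (Ryr3 and Kcnh7), against 17.8% of all bodies. The median body difference of the paralogs was 0.0596 for liver minus heart, against 0.0510 over all genes. For the 8 bodies of the genes themselves it was 0.114. Whether the lists differ was not tested.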

How the data were processed

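DNA was extracted with phenol:chloroform, and libraries (Methyl-MiniSeq) were made, sequenced and mapped by Zymo Research with proprietary methods. The submitters' processing notes name Bismark, methylKit and mm10. The authors averaged calls in 100 bp tiles and kept tiles with more than 10 reads in every replicate and below an upper coverage limit. They deposited 1 table per tissue with a methylation fraction per library, without counts or coverage, so depth is unknown and no counting interval can be given. Tissues were taken from the table names and columns were replicates with no mouse or gender. Replicates are separate mice, and tissues share mice, which the fits could not use.

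Here the 758685 shared tiles were fitted with limma 3.58.1 (R 4.3.3) on the fraction, with a variance prior following the mean level and Benjamini-Hochberg adjustment over all tiles, or over all genes for promoter and body means. The fit was tested on simulated data with independent noise and planted decreases in heart. Those data held no shared mice and no outlying library, so the test does not cover these features. Genes came from curated RefSeq transcripts (GRCm38.p6). Named were all 9 genes, for each the tile nearest the start, the widest tile, and tiles 0.3 or more apart, singly or in runs within 500 bp. Genes, lists and tiles were chosen with earlier results of these data known.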

Additional observations from a re-analysis of the deposited data

Results flagged for a closer look

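In 7 of 60 groups of 6 libraries, 1 library lay far from the others by Dixon's test at 95%, where chance alone gives about 3. Each is given as a value. In brain, the lowest library was at 0.641 in the Ryr2 tile starting at 12099501, with the others at 0.782 to 0.846. It was at 0.693 in the Nppb tile starting at 147986401, which is also the Nppb body mean, with the others at 0.898 to 0.958. For the Ryr2 body mean it was at 0.751, with the others at 0.803 to 0.815. The low Nppb and Ryr2 body values are both those of brain column 1. In heart, the lowest library was at 0.419 in the Atp2a2 tile starting at 122466101, with the others at 0.662 to 0.80. The last flags are differences near 0: a highest brain library of 0.011 in the Atp2a2 tile starting at 122502401, with the others at 0.003 to 0.005, and a highest heart library of 0.015 in the Kcnh2 tile starting at 24351601, with the others at 0.003 to 0.007.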

How the results depend on the processing

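No result changed direction under any alternative. The count of tiles called between brain and heart (81) was 125 with a minimum difference of 0.25 and 50 among tiles with 2 or more CpGs, a setting that leaves 466 tiles. The counts over all tiles moved too. Brain was higher than heart in 36376 of 758685, in 58515 at 0.25 and in 22649 of 567001 with 2 or more CpGs. It was lower in 8168, 13315 and 6426. With 2 or more CpGs, 109 tiles instead of 166 had tissue means 0.3 or more apart. With at least 3 tiles per promoter or body, 2 instead of 4 values were called between liver and brain, since the Nppb promoter and body have fewer. When each library was left out in turn, 59 to 65 tiles were called between liver and brain, 99 to 103 between liver and heart and 74 to 91 between brain and heart, and 159 to 168 tiles were 0.3 or more apart, with heart lowest in 109 to 119. Over all tiles in the same fits, 34433 to 41700 were higher in brain than in heart and 7649 to 9037 lower. Promoter and body means gave 4 calls between liver and brain and 6 between liver and heart each time, and 6 to 7 between brain and heart. Leaving out libraries for the means and for the tiles 0.3 or more apart was chosen after seeing the data. The other alternatives were the logit scale, 1 prior variance, a fit per pair of tissues, medians over libraries, tiles in at least 2 tissues and promoters from 2000 bp upstream, and they kept the counts within 1.5 times. Among single values, the Nppb tile starting at 147985801 was at -0.291 for liver minus brain without brain column 5, and the Kcnh2 tile starting at 24346601 at 0.290 to 0.296 for brain minus heart in 4 of these fits, both under the minimum of 0.3. No paired analysis was possible because the columns carry no mouse number. A higher coverage minimum was not run, since the tables give no coverage.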
